A study of Mus musculus with 8 samples.

Results

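The genes of the insulin receptor, its substrates and the FOXO transcription factors were followed in whole liver of control and POMCMfn2KO mice. The set holds 9 genes, Insr, Irs1, Irs2, Pik3r1, Akt2, Foxo1, Foxo3, Grb14 and Ptpn1, and all 23 probe sets of the array that carry 1 of these symbols alone, out of 45037 probe sets that are not array controls. A further probe set that carries both Foxo3 and another symbol was left out. The 3 control mice are labelled WT. The genotype name of the 5 POMCMfn2KO mice is read here as a deletion of the mitochondrial fusion gene Mfn2 in the POMC neurons of the hypothalamus. All mice were 6 weeks old, of a mixed C57Bl/6J, FVB/N and 129 background, and ate standard chow freely, with 12 h of light a day. Each liver was measured on 1 array. The labels give neither the Cre line nor the sex, the collection time or the feeding state at collection. Levels are log2 RMA values, differences are POMCMfn2KO minus control on that log2 scale, and errors are SD over n = 3 control and n = 5 POMCMfn2KO livers.

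Insulin binds its receptor, a tyrosine kinase encoded by Insr, which phosphorylates the docking proteins IRS1 and IRS2. These recruit phosphatidylinositol 3-kinase through its regulatory subunit, encoded by Pik3r1, and the lipid it makes activates AKT2. In hepatocytes AKT phosphorylates FOXO1 and FOXO3 and so keeps them out of the nucleus, which lowers transcription of gluconeogenic genes, of Igfbp1 and of Irs2 itself. GRB14 binds the activated receptor and inhibits its kinase, and PTP1B, the product of Ptpn1, removes the receptor's phosphates.

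Irs2 was higher in every POMCMfn2KO liver than in any control, most of Pik3r1's probe sets were lower, and Grb14 was slightly higher. The receptor gene Insr, Irs1, Akt2, Foxo1, Foxo3 and Ptpn1 did not pass the test. Each gene was represented by its brightest probe set, and a gene was called where the adjusted p of limma's test over all 11986 genes above the filter on dim probe sets was under 0.05. By this rule 2 of the 9 genes rose (Irs2 and Grb14), 1 fell (Pik3r1) and 6 were not called. Over all genes tested 18% were called, 7.02% as risen and 10.9% as fallen. After quantile normalization the split was 1134 risen and 1099 fallen, against 842 and 1310 here, and the 3 member calls were made there too. The median size of the difference, regardless of sign, was 0.17 among the 9 genes and 0.14 over all genes tested. Controls and POMCMfn2KO livers had no overlap in 3 of the 9 genes, against 28.5% of all genes tested.

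**Figure D1:**
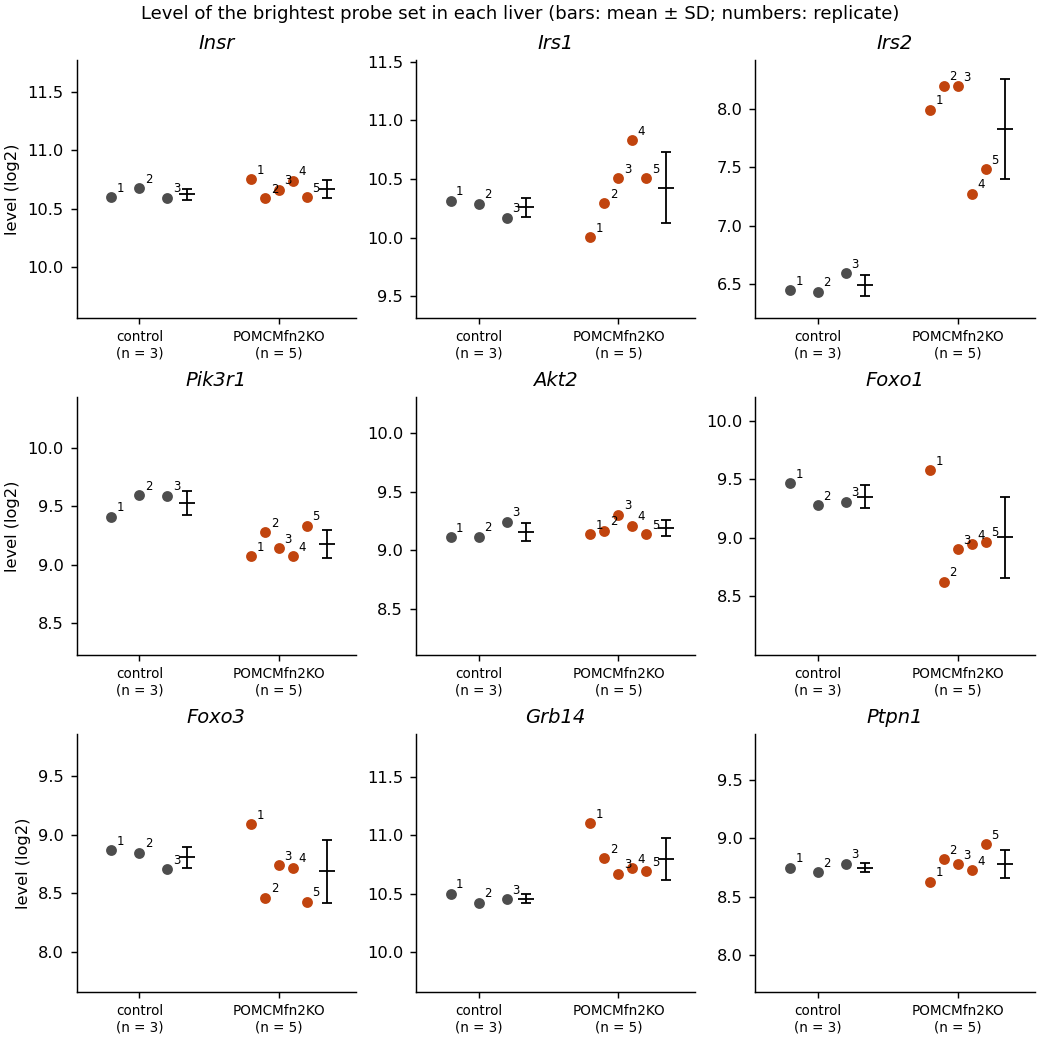
Log2 level of the brightest probe set of each of the 9 genes in each liver (points, numbered by replicate), with mean ± SD per group beside them; every panel spans the same log2 range. Irs2 lies between 7.28 and 8.20 in the 5 POMCMfn2KO livers and between 6.44 and 6.60 in the 3 controls, whereas the groups overlap for Insr, Irs1, Akt2, Foxo1, Foxo3 and Ptpn1.

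Irs2, the substrate whose transcription in liver falls after a meal, showed the largest difference of the set. Its single probe set, 1443969_at, read 6.45, 6.44 and 6.60 in controls 1, 2 and 3. In POMCMfn2KO 1 to 5 it read 7.99, 8.20, 8.19, 7.28 and 7.48. All 5 POMCMfn2KO livers lay above all controls, and they fell into a higher trio (1, 2 and 3) and a lower pair (4 and 5). Irs2 rose from 6.49 ± 0.09 to 7.83 ± 0.42, a difference of 1.33 (SE 0.21, 95% interval 0.86 to 1.81) or 2.52-fold, with adjusted p = 0.00416 in limma. It ranked 49th from the top of all genes tested by log2 rise. Because Irs2 has 1 probe set here, no second probe set could be set beside it.

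The genes whose profile over the 8 livers lay closest to that of Irs2 were Ccl9, B4galnt1 and Abhd1. Closeness was measured as the root mean square difference between deviations from the control mean, which was 0.14, 0.20 and 0.24. Ccl9, a chemokine, read 9.20 to 9.26 in controls and 10.6, 10.9, 10.8, 9.86 and 10.5 in POMCMfn2KO 1 to 5, the same lowest liver as Irs2. B4galnt1, a glycosyltransferase of ganglioside synthesis, differed by 1.21 (another tested probe set gave 0.28, and the mean of its probe sets 0.75), and Abhd1, of the alpha/beta hydrolase fold family, by 1.22. For Pik3r1 the closest profiles were those of Gnpda2, Mroh1 and Rfc4 (0.05 to 0.06). For Grb14 they were Gtpbp4, Ndufs7 and Mettl3 (0.05 to 0.06). These neighbours were picked for their values on the same 8 arrays, so their levels are a description.

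Promoter sequences are shown for the 2 receptor substrates, since only 1 of them was called, and for the 2 annotated starts of Pik3r1, which has 3 called probe sets. Each line gives the 250 bases before the start in RefSeq for GRCm38.p6, 5′ to 3′ on the gene's strand, with capitals for any match to 1 of 4 motifs on either strand: the forkhead motif GTAAACA, the insulin response sequence TGTTTTG to which FOXO factors can bind, the core TGACG of the cAMP response element, and the E-box CACGTG of basic helix-loop-helix factors.
Irs1, chr1:82291440-82291689, minus strand: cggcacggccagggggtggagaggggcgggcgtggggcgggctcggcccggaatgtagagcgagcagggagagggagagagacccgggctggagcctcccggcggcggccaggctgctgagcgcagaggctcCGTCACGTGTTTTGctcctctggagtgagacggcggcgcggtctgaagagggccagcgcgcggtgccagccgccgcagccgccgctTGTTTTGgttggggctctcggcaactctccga
Irs2, chr8:11008930-11009179, minus strand: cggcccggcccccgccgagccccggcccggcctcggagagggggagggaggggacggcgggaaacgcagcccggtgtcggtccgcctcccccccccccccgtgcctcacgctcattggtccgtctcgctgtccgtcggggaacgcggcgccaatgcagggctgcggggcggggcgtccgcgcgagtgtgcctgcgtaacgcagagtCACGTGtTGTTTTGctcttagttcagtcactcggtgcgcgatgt
Pik3r1, upstream start, chr13:101768218-101768467, minus strand: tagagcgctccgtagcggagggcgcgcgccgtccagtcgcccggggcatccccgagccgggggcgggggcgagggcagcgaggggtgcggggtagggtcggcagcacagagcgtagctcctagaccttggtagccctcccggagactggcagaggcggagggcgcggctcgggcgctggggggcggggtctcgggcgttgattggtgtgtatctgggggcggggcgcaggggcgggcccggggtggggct
Pik3r1, downstream start, chr13:101692631-101692880, minus strand: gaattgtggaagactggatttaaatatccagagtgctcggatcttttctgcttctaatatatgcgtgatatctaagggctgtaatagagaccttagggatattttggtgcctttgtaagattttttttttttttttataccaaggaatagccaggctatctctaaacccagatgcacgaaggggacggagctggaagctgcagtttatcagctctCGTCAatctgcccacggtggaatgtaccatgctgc
In Irs2 the E-box lies 44 to 39 bases and the insulin response sequence 37 to 31 bases before the start. In Irs1 the E-box (115 to 110 bases before the start) shares its last letters with an insulin response sequence (111 to 105) and its first letters with a TGACG on the other strand (118 to 114), and another TGTTTTG lies 32 to 26 bases before the start. Of 32851 promoter windows of this length, 5.56% hold TGTTTTG, 6.02% hold CACGTG and 0.295% hold both. The Irs1 and Irs2 windows both hold this pair of motifs. Whether the motifs bear on the level of either gene was not tested. GTAAACA (3.17% of windows) matched none of the 12 windows of 8 members; Insr had no entry. TGACG, found in 17.8% of windows, matched the downstream start of Pik3r1, Irs1, Foxo3 and 2 of the 4 starts of Akt2. The windows of Grb14, Ptpn1, Foxo1 and the upstream start of Pik3r1 held no match. A match is a run of letters, not a measured binding site.

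Irs1, the other main substrate in liver, spread widely among the POMCMfn2KO livers without a shift of the group. Probe set 1423104_at read 10.3, 10.3 and 10.2 in the controls and 10.002, 10.3, 10.5, 10.8 and 10.5 in POMCMfn2KO 1 to 5. One POMCMfn2KO liver lay below all controls and 3 lay above them. The difference was 0.17 (95% interval -0.18 to 0.52, adjusted p = 0.492 in limma), so a change of up to 0.52 on the log2 scale lies within the interval. POMCMfn2KO 4 held the highest Irs1 level and the lowest Irs2 level of its group, and POMCMfn2KO 1 held the lowest Irs1 level.

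Insr, the receptor itself, read nearly alike in all 8 livers. Its bright probe set 1434446_at ranged from 10.596 to 10.679 in controls and from 10.589 to 10.753 in POMCMfn2KO, with a difference of 0.04 (95% interval -0.10 to 0.19, adjusted p = 0.685 in limma). Dimmer probe sets 1450225_at and 1421380_at fell below the filter at 5.80 and were not tested; their group means differed by 0.05 and -0.04.

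Pik3r1 gives the largest regulatory subunit, p85alpha, and from internal starts the shorter p55alpha and p50alpha; its 4 probe sets were all lower on average in POMCMfn2KO liver, with differences of -1.001 to -0.17. Each probe set above the filter was tested in a second limma fit over 22519 probe sets, of which 15.3% were called (6.86% as risen and 8.47% as fallen). The brightest, 1438682_at, read 9.41, 9.59 and 9.59 in controls and 9.07, 9.28, 9.14, 9.07 and 9.33 in POMCMfn2KO 1 to 5. It fell by 0.35 (SE 0.08, 1.28-fold, adjusted p = 0.0217 over genes and 0.0255 over probe sets in limma).

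The largest fall was at 1425514_at, which read 8.21, 8.33 and 8.12 in controls and 7.29, 7.23, 7.18, 7.38 and 7.02 in POMCMfn2KO 1 to 5. The level fell by 1.001 on the log2 scale (95% interval -1.20 to -0.80), or 2.00-fold, with adjusted p = 0.000325 over probe sets in limma, and the groups did not overlap. Probe set 1451737_at fell from 7.89 ± 0.06 to 7.39 ± 0.17 (difference -0.50, adjusted p = 0.0112 in limma), also with no overlap. By contrast 1425515_at read 7.84, 8.25 and 8.12 in controls and 7.59, 8.05, 7.73, 7.95 and 8.15 in POMCMfn2KO, so the groups overlapped (difference -0.17, 95% interval -0.49 to 0.14, adjusted p = 0.437 in limma).

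Whether probe sets of 1 gene changed unequally was tested within arrays for all 16 pairs of tested probe sets of a member, an addition made after the values were seen. The log2 ratio of 1438682_at to 1425514_at was 1.31 ± 0.14 in controls and 1.96 ± 0.24 in POMCMfn2KO, a difference of 0.65 with no overlap. The ratios of 1425514_at to the other Pik3r1 probe sets, 1425515_at and 1451737_at, did not overlap between the groups either. Each of these 3 pairs had p = 0.0179 in a 2-sided exact permutation test, the smallest that the 56 splits of 8 arrays allow. The adjusted p of that test was 0.0714 over the 16 pairs, so none passed after adjustment. With 4 pairs at the smallest possible p, none could have passed over 16 pairs, so no conclusion is drawn from this. The 2 annotated starts of Pik3r1 shown above lie 75587 bases apart. Which transcript each probe set measures was not analysed here.

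**Figure D2:**
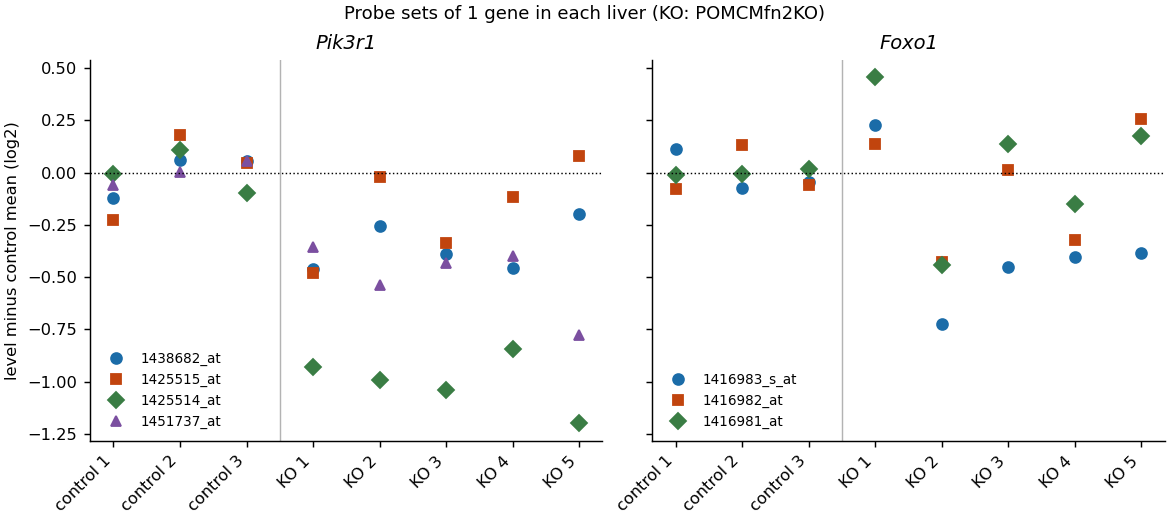
Level minus the control mean (log2) of the 4 Pik3r1 probe sets and the 3 tested Foxo1 probe sets in each of the 8 livers; KO stands for POMCMfn2KO and marks denote probe sets. For Pik3r1 the probe set 1425514_at lies lowest in all 5 POMCMfn2KO livers; for Foxo1 the probe set 1416983_s_at lies below the controls in 4 of them and above in POMCMfn2KO 1.

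Akt2, the main AKT kinase of insulin action in liver, did not pass on any of its 3 probe sets. The brightest, 1424480_s_at, read 9.16 ± 0.07 in controls and 9.19 ± 0.07 in POMCMfn2KO (difference 0.03, 95% interval -0.12 to 0.19, adjusted p = 0.788 over probe sets in limma). Probe set 1455703_at lay above all controls in 4 of 5 POMCMfn2KO livers, with a difference of 0.16 (adjusted p = 0.140 in limma), and 1421324_a_at differed by 0.07.

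Foxo1 did not pass the test, with 1 POMCMfn2KO liver above the controls and the other 4 below them. Its brightest probe set, 1416983_s_at, read 9.46, 9.28 and 9.31 in controls and 9.58, 8.62, 8.90, 8.95 and 8.96 in POMCMfn2KO 1 to 5. POMCMfn2KO 1 lay above all controls and the other 4 lay below all of them. The difference was -0.35 (95% interval -0.75 to 0.05, adjusted p = 0.209 over genes in limma), and without POMCMfn2KO 1 it was -0.49 with adjusted p = 0.00961. The other tested probe sets, 1416982_at and 1416981_at, differed by -0.07 and 0.04, and neither passed (adjusted p = 0.808 and 0.915 over probe sets in limma). The ratio of 1416983_s_at to 1416981_at was 1.42 ± 0.11 in controls and 1.04 ± 0.18 in POMCMfn2KO (exact permutation p = 0.0179, adjusted p = 0.0714). Probe set names ending in _s_at can share probes among transcripts of different genes. The brightest probe set of Akt2 has this ending too, as have those of Hdac3, Gabarapl1 and Sesn1, named below. A dim probe set, 1456529_at, was not tested (difference -0.04).

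Foxo3, a relative of Foxo1 that binds the same sequences, was slightly lower on average on all 3 tested probe sets and passed on none. The brightest, 1434831_a_at, read 8.87, 8.85 and 8.71 in controls and 9.09, 8.46, 8.74, 8.72 and 8.43 in POMCMfn2KO 1 to 5. As with Foxo1, POMCMfn2KO 1 lay above all controls, and POMCMfn2KO 2 and 5 lay below them. The 3 differences were between -0.12 and -0.10, with adjusted p from 0.420 to 0.609 over probe sets in limma.

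Among the inhibitors of the receptor, Grb14 passed narrowly and Ptpn1 did not pass. Grb14 probe set 1417673_at read 10.5, 10.4 and 10.5 in controls and 11.1, 10.8, 10.7, 10.7 and 10.7 in POMCMfn2KO 1 to 5, with no overlap. Grb14 rose from 10.46 ± 0.04 to 10.80 ± 0.18, a difference of 0.34 (SE 0.10, 1.26-fold). The adjusted p was 0.0453 in the limma fit over genes and 0.0511 in the fit over probe sets, on either side of the threshold. Its other probe set, 1457526_at, was dim and not tested (difference 0.11). Ptpn1 read 8.75 ± 0.04 and 8.78 ± 0.12 on 1417068_a_at and 7.81 ± 0.04 and 7.86 ± 0.16 on 1438670_at, in controls and POMCMfn2KO. Its differences of 0.03 and 0.05 had adjusted p of 0.818 and 0.764 over probe sets in limma.

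In all, 19 of the 23 probe sets passed the filter, of which 1 rose and 3 fell in the fit over probe sets (6.86% and 8.47% of all probe sets tested), and 5 had no overlap between groups, against 26.3% of all probe sets tested. The 4 dim probe sets belong to Insr, Foxo1 and Grb14, and the groups overlapped in all of them.

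**Figure D3:**
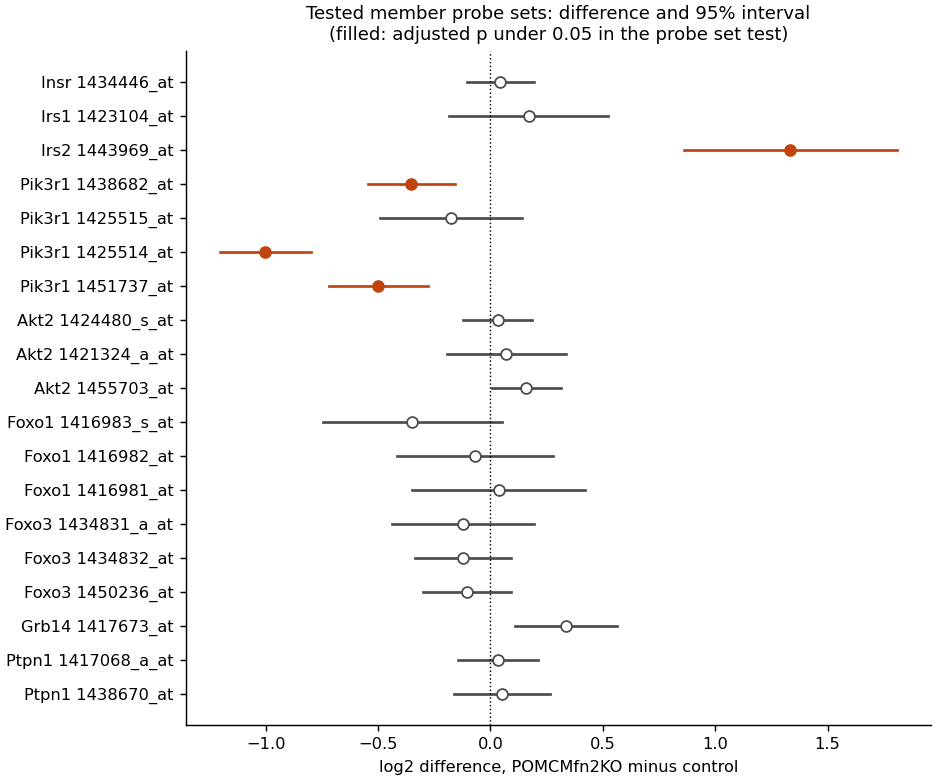
Log2 difference (POMCMfn2KO minus control) of the 19 tested probe sets with its 95% interval from limma; filled points have adjusted p under 0.05 over all probe sets tested. Irs2 stands to the right at 1.33, 3 of the 4 Pik3r1 probe sets lie to the left between -1.001 and -0.35, and Grb14 lies to the right with an adjusted p of 0.0511.

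The calls differed in whether they were kept when livers were left out. Leaving out control 1, 2 or 3 lowered the count of all genes called from 2152 to 821, 820 and 863. A call lost this way, here or below, therefore does not by itself show that it rested on that liver. Irs2 was called without each liver in turn (difference 1.24 to 1.47, adjusted p up to 0.0279) and without POMCMfn2KO 2 and 3 together (1.09, adjusted p = 0.0209). The Pik3r1 gene call was lost when control 2 (adjusted p = 0.0974), control 3 (0.0940) or POMCMfn2KO 3 (0.0518) was left out, and when POMCMfn2KO 2 and 3 both were (0.0819), with differences of -0.41 to -0.32 when 1 liver was left out. In the fit over probe sets 1438682_at was also not called without control 1 (0.0505). Probe set 1425514_at kept its call under each of these, with differences of -1.05 to -0.95, whereas 1451737_at lost its call without control 2 (0.0524), control 3 (0.0580) or both POMCMfn2KO 2 and 3 (0.0671). Leaving out any 1 control, POMCMfn2KO 2 or POMCMfn2KO 3 ended the Grb14 call, with 0.151 as the largest adjusted p, as did leaving out POMCMfn2KO 2 and 3 (0.113) or dropping the filter on dim probe sets (0.0539).

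The livers differed in ways that moved with the group. Over all genes tested the median SD was 0.07 in controls and 0.13 in POMCMfn2KO, and 8 of the 9 member genes had the larger SD in POMCMfn2KO, as did 80% of all genes tested. POMCMfn2KO 1 was the highest or the lowest of the 8 livers in 7 of the 9 genes, and the share over all genes was not counted. Over all probe sets tested, the SD of its differences from other POMCMfn2KO livers was 0.368 to 0.379. Among those others the SD was 0.193 to 0.347. Mean levels of 10 pancreatic acinar markers were 6.09 to 6.12 in controls and 6.09 to 6.26 in POMCMfn2KO 1, 4 and 5, but 10.5 and 10.7 in POMCMfn2KO 2 and 3, the livers with the highest Irs2. The difference of Irs2 without these 2 livers is given above. Neutrophil markers (5 genes) averaged 6.36 to 6.46 in controls and 5.58 to 5.85 in POMCMfn2KO, and skeletal muscle markers (4 genes) 5.80 to 6.27 and 5.89 to 7.18; their part in the results was not tested. The neutrophil difference lay in S100a8 (-1.47, below the filter and not tested) and S100a9 (-1.56, adjusted p = 1.27e-05 in limma), while Ngp, Camp and Mpo differed by -0.19, -0.09 and -0.12 and did not pass. In the Kupffer cell and macrophage list Timd4 fell by 0.69 (adjusted p = 0.00405) and in the endothelial list Stab2 rose by 0.55 (adjusted p = 0.0107), each without overlap between the groups; no other gene of these lists was called, and the part of both in the results was not tested. The mean levels of the groups overlapped for markers of Kupffer cells and macrophages (9.11 to 9.43 and 8.58 to 9.32), endothelium (8.25 to 8.45 and 8.25 to 8.72), stellate cells and fibroblasts (8.54 to 8.71 and 8.45 to 8.72), lymphocytes (5.86 to 6.05 and 5.76 to 5.89), erythroid cells (5.87 to 5.92 and 5.70 to 6.45), cholangiocytes (5.18 to 5.48 and 5.21 to 5.44), adipocytes (5.46 to 5.57 and 5.25 to 5.95) and pancreatic islets (5.34 to 5.50 and 5.36 to 5.51). The hepatocyte markers averaged 13.5 to 13.6 in controls and 13.5 to 13.7 in POMCMfn2KO, with Alb at 15.2 to 15.3 in every liver and Cps1 as the one called gene of the list (0.31, adjusted p = 0.0264). In whole liver, fewer cells of a type and less RNA per cell cannot be told apart. Mfn2, by the reading of the genotype name deleted in neurons, was measured here in liver. There it read 9.88 ± 0.08 in controls and 9.61 ± 0.24 in POMCMfn2KO (adjusted p = 0.169 in limma), which does not check the labels.

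The other genes of the pathway were taken from 6 lists, each described by its count of called genes. Over all genes tested 18% were called, 7.02% as risen and 10.9% as fallen. Receptor adaptors are the proteins that dock beside or in place of the IRS proteins. The list of this name also holds the receptor genes Igf1r and Insrr, and Sos1, Sos2, Cbl and Cblb. Irs3 and Irs4, listed as well, were dim and not tested. Of 14 tested, 2 rose and none fell (0 fell at an unadjusted p under 0.05 in limma), with a median difference of 0.08. Grb7, of the same adaptor family as Grb14, rose from 9.05 ± 0.04 to 9.45 ± 0.06 (difference 0.40, adjusted p = 0.00379 in limma). Sos1, a guanine nucleotide exchange factor for RAS, rose by 0.30 (adjusted p = 0.0487), and another probe set of it gave -0.10. The Sos1 call ended with any 1 control or any of POMCMfn2KO 2, 3 and 5 left out (largest adjusted p 0.171), with POMCMfn2KO 2 and 3 left out (0.180), with the mean of its probe sets (0.419) and with no filter (0.0589). Grb10, the closest relative of Grb14, differed by 0.23 (adjusted p = 0.0875) and Igf1r by 0.05.

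In the relay from PI3-kinase through AKT to mTOR, 2 of 22 genes rose and none fell (1 fell at an unadjusted p under 0.05 in limma), with a median difference of -0.03. Pik3ca, the catalytic subunit p110alpha that the product of Pik3r1 binds, rose from 8.56 ± 0.11 to 8.99 ± 0.10 (difference 0.43, adjusted p = 0.00842 in limma). Its 5 tested probe sets all gave a positive difference, from 0.20 to 0.44, so Pik3ca and Pik3r1, partners in 1 enzyme, changed in opposite directions. Pdpk1, the kinase that phosphorylates AKT at its activation loop, rose by 0.36 (adjusted p = 0.0293). The Pdpk1 call ended with any 1 control, POMCMfn2KO 2 or POMCMfn2KO 3 left out (largest adjusted p 0.117), and with POMCMfn2KO 2 and 3 both left out neither Pdpk1 (0.140) nor Pik3ca (0.0625) was called. The other regulatory subunit genes Pik3r2 (-0.15, adjusted p = 0.145) and Pik3r3 (-0.21, adjusted p = 0.195) did not pass, nor did Akt1 (0.09).

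Of 18 tested inhibitors of insulin signalling, 1 rose and 3 fell, with a median difference of -0.02. Socs3, induced by cytokines and able to block IRS proteins, fell from 8.65 ± 0.18 to 7.85 ± 0.18 (-0.80, adjusted p = 0.0032 in limma); other probe sets gave -0.21 and -0.87. Inpp5k, a phosphatase of the lipid made by PI3-kinase, fell by 0.41 (adjusted p = 0.0032), and its other probe sets gave -0.25 and -0.26. Phlpp1, a phosphatase that removes an activating phosphate from AKT, rose by 0.38 (adjusted p = 0.00839). Ptprf, a receptor tyrosine phosphatase named after its value was seen, fell by 0.43, and its call ended with any 1 control or POMCMfn2KO 3 left out (largest adjusted p 0.120), with POMCMfn2KO 2 and 3 left out (0.0755), with the mean of its probe sets (0.0787) and after quantile normalization (0.0599). The lipid phosphatase gene Inppl1 differed by 0.42 (adjusted p = 0.0515).

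Among 17 partners and relatives of the FOXO factors, 3 rose and 1 fell, with a median difference of 0.06. Crebbp, a histone acetyltransferase that also acetylates FOXO proteins, rose by 0.49 on its brightest probe set (adjusted p = 0.00311 in limma), but other probe sets gave 0.06 and 0.02, and the call was lost with their mean (0.173). Foxa3, a forkhead factor of hepatocytes, rose from 9.90 ± 0.04 to 10.38 ± 0.17 (difference 0.48), and its relative Foxa1, named after its value was seen, from 7.78 ± 0.08 to 9.04 ± 0.56 (1.27). The third of these pioneer factors, Foxa2, did not pass (-0.11, adjusted p = 0.288). The Foxa1 call ended with any 1 control left out (largest adjusted p 0.0646), and that of Foxa3 with control 2 (0.0600), control 3 (0.0531) or both POMCMfn2KO 2 and 3 (0.0632) left out. Hdac3, a histone deacetylase, fell from 9.26 ± 0.01 to 8.78 ± 0.10 (-0.48, adjusted p = 0.00307). Foxo4 (0.25, adjusted p = 0.175) and Sirt1 (0.25, adjusted p = 0.0718) did not pass.

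The list of genes that FOXO factors activate had 5 of 24 risen and 1 fallen (25% called), with a median difference of 0.01. Igfbp1, the classic insulin-repressed FOXO1 target, read 10.6, 10.5 and 10.4 in controls and 13.6, 13.1, 12.9, 11.9 and 11.7 in POMCMfn2KO 1 to 5. Like Irs2 it was higher in POMCMfn2KO 1, 2 and 3 than in 4 and 5. It rose by 2.11 (adjusted p = 0.0085 in limma) and lost its call without POMCMfn2KO 2 and 3 together (1.88, adjusted p = 0.0616). Txnip, an arrestin that limits glucose uptake, rose by 0.83 (adjusted p = 0.000309), and Gabarapl1, of the autophagosome, fell by 0.48 (adjusted p = 0.0208). The remaining called genes, chosen after their values were seen, were G6pc (0.60), Pck1 (0.36) and the cyclin gene Ccng2 (0.58). With any 1 control left out G6pc, Ccng2 and Gabarapl1 were not called (largest adjusted p 0.0826), nor was Pck1 with control 1 or 3 left out (0.0562 and 0.0662). With POMCMfn2KO 2 and 3 left out Ccng2 (0.0886), Gabarapl1 (0.0751) and Pck1 (0.0668) were not called. Other targets were near the control level or spread widely: Sod2 (-0.01), Cat (0.05) and Sesn1 (0.15) did not pass, and Pdk4 read 8.48 ± 0.04 and 9.35 ± 0.78 (adjusted p = 0.145).

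Of 12 tested lipogenic genes that insulin induces, 5 fell and 1 rose, 50% called, with a median difference of -0.19. Srebf1 fell by 1.52 on the log2 scale, from 10.56 ± 0.15 to 9.05 ± 0.21 (adjusted p = 0.000182 in limma), and its levels in the POMCMfn2KO livers, 8.80 to 9.24, did not split into the trio and pair seen for Irs2. Pklr, the liver pyruvate kinase gene, fell by 0.83 and the elongase gene Elovl6 rose by 0.37. Thrsp (-2.03), Acly (-0.56) and Scd1 (-0.70), chosen after their values were seen, also fell. Their other tested probe sets gave -2.38 for Scd1, -1.61 and -0.04 for Thrsp, and -0.52 and -0.37 for Acly, and the mean over probe sets was -1.54 for Scd1 and -1.23 for Thrsp. The Elovl6 call ended with any 1 control left out (largest adjusted p 0.0772), with POMCMfn2KO 2 and 3 left out (0.0573) and with the mean of its probe sets (0.0515). Scd1 was not called with any 1 control, POMCMfn2KO 2 or POMCMfn2KO 3 left out (largest adjusted p 0.107), or with both of the latter left out (0.139).

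**Figure D4:**
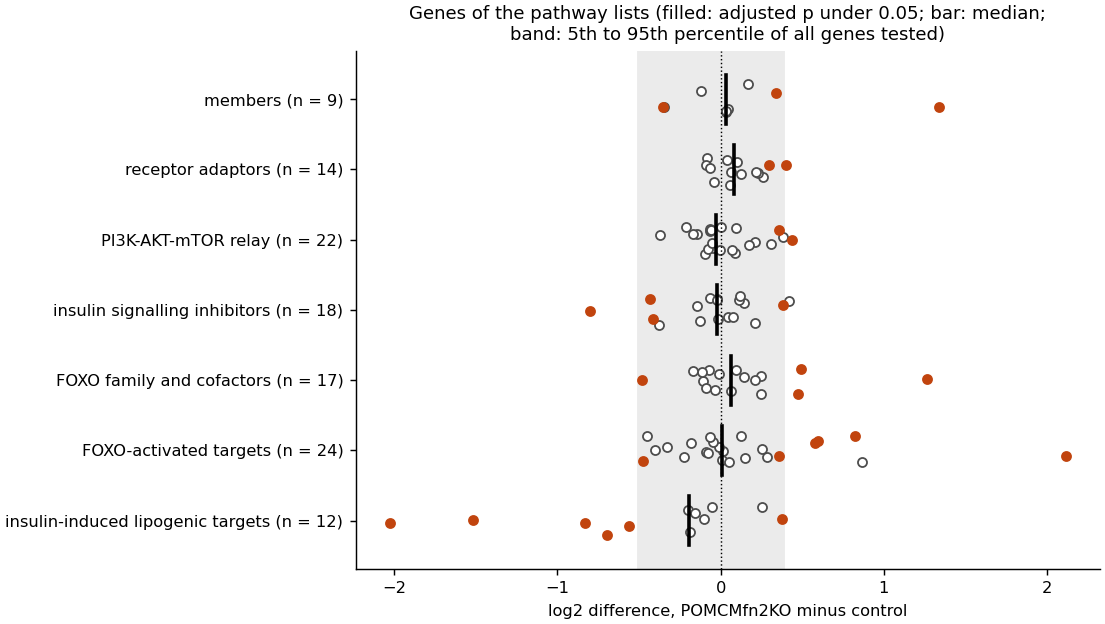
Log2 difference (POMCMfn2KO minus control) of each tested gene of the 9 members and the 6 pathway lists; filled points have adjusted p under 0.05 over all genes, bars are list medians, and the grey band spans the 5th to 95th percentile of all genes tested (-0.51 to 0.39). List medians lie between -0.19 and 0.08, with called genes on both sides of 0 in 5 of the 7 groups and on the right alone for the receptor adaptors and the relay.

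**Figure D5:**
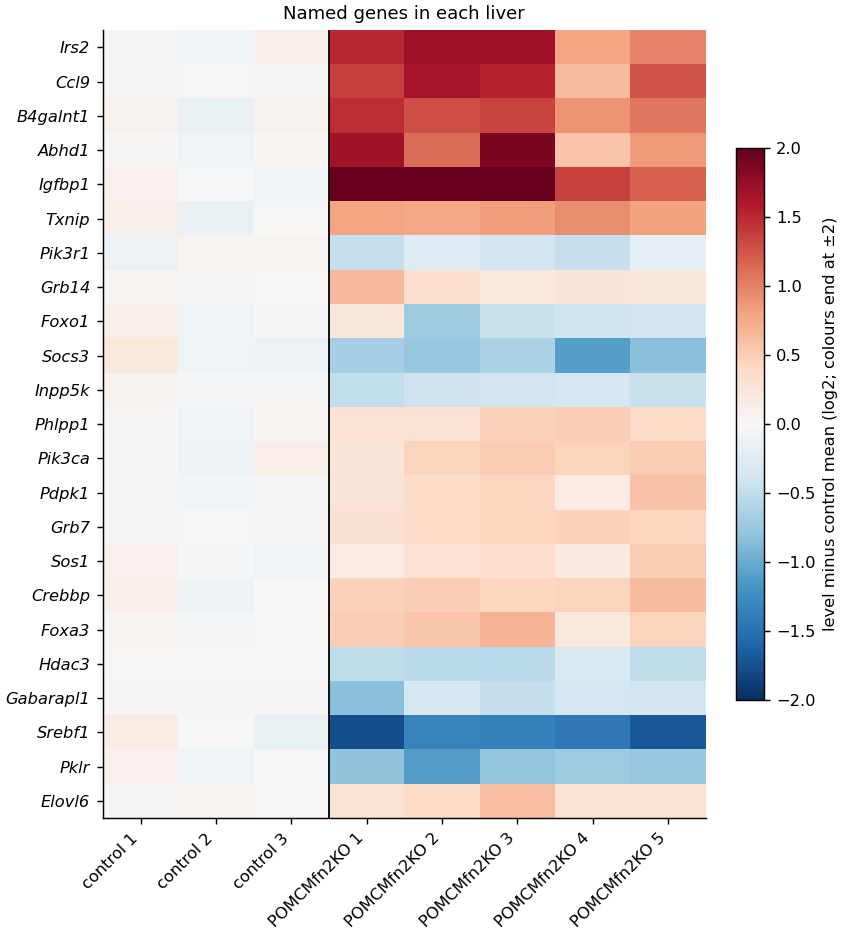
Level minus the control mean (log2, colours ending at ±2) of named genes (rows) in each liver (columns, controls left of the line). Irs2, Ccl9 and Igfbp1 are darkest in POMCMfn2KO 1, 2 and 3, while Txnip, between 10.3 and 10.5 in all 5, is even across the group.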

How the data were processed

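RNA from whole liver of 8 mice was hybridised as biotin-labelled cRNA to 1 GeneChip array each. Each deposited value is a probe set level on the log2 scale, which the authors computed with RMA in the affy package, per the submitters' processing notes (versions are not given in the sources used here); no further transformation was applied. The number of arrays limits the precision. RMA subtracts background and normalizes quantiles across arrays, which compresses low levels. Symbols come from the platform annotation: of 45101 probe sets 64 were controls, 34945 had 1 symbol, 932 several and 9160 none; RefSeq changed 0 symbols.

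The brightest probe set stood for each of 18193 genes. Genes, and in a second fit probe sets, whose mean over the 8 arrays was below 5.80 (the median over probe sets other than controls) did not enter the tests. The test was limma 3.58.1 in R 4.3.3, POMCMfn2KO minus control, 2-sided, with a threshold of 0.05. Adjustment was by Benjamini-Hochberg over 11986 genes or 22519 probe sets. The test was also run on simulated data with the same SD in both groups. That run did not cover the unequal spread of these livers. The members and the lists were chosen with earlier results of these data known. Named genes were all members, the 3 closest profiles of each called member, and from each list the 2 called genes with the lowest p per direction. Other called genes of these lists are marked in the text. List genes given as not called, and single marker genes, were named outside this rule. Alternatives changed the filter, probe set choice, scaling, variance model, threshold and replicate block, and left out arrays; for probe sets, all but the filter and single arrays were added after seeing the data. Figures used matplotlib 3.10.9 in Python 3.11.15. Each array carries the number of its own mouse liver in the labels; no array duplicated another, the SD of differences between 2 controls being 0.141 to 0.152 and between 2 POMCMfn2KO livers 0.193 to 0.379.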

Additional observations from a re-analysis of the deposited data

Results flagged for a closer look

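In each group of 5 POMCMfn2KO livers, 1 liver was set against the other 4 for 56 probe sets or genes named in the text. It stood apart where its gap to the nearest liver exceeded 0.71 of the range (Dixon's cut). About 1 in 20 groups of unrelated normal values pass this cut. Here all groups share the same livers and many genes were picked for their values, so that rate does not apply to the count. In 8 of the 56 groups 1 liver stood apart. None of the 23 member probe sets was among them. POMCMfn2KO 1 read 12.2 for Ndufs7 (others up to 11.9) and 8.52 for Mettl3 (others up to 8.06), both among the profiles closest to that of Grb14. It also read 8.82 for Pik3ca (others from 9.004) and 11.7 for Gabarapl1 (others from 12.1). POMCMfn2KO 4 lay nearest the controls for Hdac3, at 8.96 (others up to 8.75), and for Ccng2, at 9.69 (others from 10.1). POMCMfn2KO 5 read 9.07 for Crebbp (others up to 8.92), and POMCMfn2KO 2 read 7.72 for Pklr (others from 8.02).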

How the results depend on the processing

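No difference changed sign where it was called. The arrays showed little sign of pairing by number. Deviations from the group means of same-numbered livers correlated at 0.04, 0.04 and -0.03 over genes, and 2 of 3 controls correlated best with their own number. These values cannot settle whether the numbers mark pairs. POMCMfn2KO 4 and 5 have no control of the same number. With a replicate block the difference therefore rests on livers 1, 2 and 3 of each group. Under this block 1891 genes were called, 3 of them members, and 4 relay genes. Of the named genes Sos1 was no longer called (0.26, adjusted p = 0.108 in limma), and Rfc4 and Ndufs7 newly passed (0.0257 and 0.0313). Relay genes also numbered 4 with arrays centred on their median, after quantile normalization and with array weights, which called 1323 genes as risen. With no filter 1 receptor adaptor passed. At an adjusted p under 0.01, 702 genes passed (253 risen, 449 fallen), with 1 member, 1 receptor adaptor, 1 relay gene, 2 FOXO partners and 2 FOXO targets. Without POMCMfn2KO 2 and 3 together, 640 genes passed (239 risen, 401 fallen) and 954 probe sets, with 1 member (Irs2), 1 receptor adaptor, 2 FOXO targets and 0 relay genes (limma gave 3 of these an unadjusted p under 0.05). Leaving out 1 liver gave 820 to 2760 genes (286 to 1156 risen, 496 to 1642 fallen), 1099 to 4572 probe sets, 1 to 4 members, 1 to 3 receptor adaptors, 1 to 4 relay genes, 2 to 4 FOXO partners and 2 to 9 FOXO targets; the counts of all genes were lowest without a control (821, 820 and 863), followed by 1399 without POMCMfn2KO 3. Inhibitors numbered 3 to 5 and lipogenic genes 4 to 6. Of the differences of named genes over all alternatives, the threshold of 0.01 included, 638 kept their side of the threshold, 16 newly passed and the rest no longer passed. The cause of these shifts was not tested.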
